A study of Mus musculus with 15 samples.

Results

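SLAM family receptors are surface proteins of blood cells, and transcripts of 7 of them, Slamf6, Slamf7, Slamf8, Slamf9, Cd48, Cd84, and Ly9, were read here in blood monocytes and in macrophages of the small intestine. The 7 genes were chosen by symbol out of 19456 genes in the counts, with their levels in these same 4 populations already known. Their levels and differences are therefore given as a description, with no test, and tests are given for the receptors' signalling partners, for other genes of the family, and for neighbouring genes. Those lists were also drawn up with earlier results of these data known. RNA was sequenced from 15 libraries of wild-type adult male C57BL/6 mice. Of these, 3 came from Ly6Chi monocytes sorted from peripheral blood, and 4 came from each of 3 macrophage subsets sorted from the small intestine by the surface proteins Tim-4 and CD4. One subset had neither protein (Tim-4-CD4-), one had CD4 alone (Tim-4-CD4+), and one had both (Tim-4+CD4+). No library received a treatment, and cells were pooled from 3 mice for each library but monocyte replicate 2, for which 4 mice were used.

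Most SLAM family receptors bind a second copy of themselves on a neighbouring cell, whereas CD48 binds CD244 and, in mice, CD2. The tails of SLAMF6, SLAMF7, CD84, LY9, SLAMF1, and CD244 carry tyrosine switch motifs that recruit small adaptors of the SAP family, and through them Src family kinases, or else phosphatases. SLAMF8 and SLAMF9 have short tails without these motifs, and CD48 is held in the membrane by a lipid anchor. In macrophages the family is known for roles in phagocytosis and in the killing of bacteria, and SLAMF7 is known for prompting the engulfment of tumor cells together with the integrin Mac-1.

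All 7 genes lie on chromosome 1 of GRCm38 in 2 clusters. Positions are from GENCODE M21, which lists the 7 identifiers with the same version number as the counts. The first cluster spans 364547 bases and holds, in order, Ly9 (ENSMUSG00000004707.14, chr1:171588624-171607410, minus strand), Slamf7 (ENSMUSG00000038179.13, chr1:171632403-171653035, minus strand), Cd48 (ENSMUSG00000015355.13, chr1:171682009-171705258, plus strand), Cd84 (ENSMUSG00000038147.13, chr1:171839697-171890718, plus strand), and Slamf6 (ENSMUSG00000015314.10, chr1:171917515-171953170, plus strand). The second cluster spans 115211 bases, with Slamf9 (ENSMUSG00000026548.4, chr1:172475358-172478575, plus strand) at one end and Slamf8 (ENSMUSG00000053318.7, chr1:172581758-172590568, minus strand) at the other. Ly9 lies within the span of Cd244a on the opposite strand, with 0 exon bases in common. Slamf7 shares 423 exon bases with an antisense gene, Gm37787, which had 108 reads in total over all libraries against 51784 for Slamf7. The strand setting of the counts is not given in the sources used here, so reads from these 423 bases cannot be assigned to either gene with certainty.

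The 250 bases before the transcription start are printed from RefSeq on GRCm38.p6 for Slamf7 and Slamf8, whose levels were graded across the macrophage subsets, and for Slamf9, which had the largest folds over monocytes. RefSeq starts were found for 6 of the 7 receptors. Capitals mark matches, on either strand, to the motifs that were searched. These were the PU box GAGGAA, the AP-1 site TGANTCA, and an interferon response element made of GAAA, any 2 bases, and a second GAAA. The E-box CACGTG and the TATA box TATAAA were searched as well.
Slamf7, chr1:171649000-171649249, minus strand: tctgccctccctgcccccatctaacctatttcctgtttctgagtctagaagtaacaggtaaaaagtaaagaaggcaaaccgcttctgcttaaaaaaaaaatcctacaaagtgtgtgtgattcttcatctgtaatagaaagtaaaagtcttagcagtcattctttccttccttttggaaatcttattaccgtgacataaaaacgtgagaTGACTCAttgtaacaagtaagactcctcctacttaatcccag
Slamf8, chr1:172590569-172590818, minus strand: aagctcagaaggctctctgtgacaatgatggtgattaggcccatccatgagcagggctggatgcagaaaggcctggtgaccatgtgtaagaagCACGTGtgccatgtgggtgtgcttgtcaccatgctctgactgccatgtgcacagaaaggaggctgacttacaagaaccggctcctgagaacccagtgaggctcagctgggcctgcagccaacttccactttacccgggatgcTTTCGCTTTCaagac
Slamf9, chr1:172475110-172475359, plus strand: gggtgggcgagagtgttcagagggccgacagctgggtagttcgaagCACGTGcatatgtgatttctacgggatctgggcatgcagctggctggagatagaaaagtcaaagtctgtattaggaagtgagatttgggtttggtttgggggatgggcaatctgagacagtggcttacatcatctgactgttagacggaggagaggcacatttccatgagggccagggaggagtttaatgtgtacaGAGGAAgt

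The Slamf7 window held 1 match, to TGANTCA, whose first base lies 42 bases before the start. In the Slamf8 window, the interferon response element matched on the opposite strand 15 bases before the start and CACGTG matched 157 bases before it. The Slamf9 window held GAGGAA 8 bases before the start and CACGTG 204 bases before it, and TATAAA matched in none of the 3 windows. Of 32851 RefSeq promoters of the same length, 23.3% held GAGGAA, 6.75% held TGANTCA, 2.98% held the interferon response element, 6.02% held CACGTG, and 12.4% held TATAAA. A match is a run of letters and not a measured binding site. Of the bases shown, 8 of Slamf7 and 2 of Slamf9 fall in exons annotated by GENCODE M21, whose Slamf7 gene extends beyond the RefSeq start.

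The labels of the libraries were checked first. Timd4, which encodes Tim-4, was at 355 CPM on average in Tim-4+CD4+ macrophages and at 1.70 CPM or less in the other populations, where CPM is the count per 1000000 reads of a library after scaling. Cd4 averaged 22.9 CPM in the Tim-4-CD4- subset, and it was at 531 CPM in the Tim-4-CD4+ and 816 CPM in the Tim-4+CD4+ subset. All 7 macrophage markers were detected in each subset, with sums from 10501 to 14527 CPM. Total counts ran from 39388763 to 151510641 per library. Tim-4+CD4+ replicate 1 was the least like the other libraries of its population (mean r of log2 CPM across genes 0.972, against 0.977 to 0.979 for the other 3). In bulk libraries, a smaller share of cells with a transcript and less transcript per cell cannot be told apart.

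Slamf7 differed most among the macrophage subsets. It was at 116, 87.7, 113, and 88.4 CPM in the 4 Tim-4-CD4- libraries, at 53.9, 42.4, 47.8, and 51.5 CPM in the Tim-4-CD4+ libraries, and at 19.6, 31.0, 24.4, and 17.8 CPM in the Tim-4+CD4+ libraries. The libraries of the 3 subsets did not overlap, and each step was a fall of about 2-fold (2.07-fold and 2.11-fold). Monocytes, at 29.1, 18.9, and 23.9 CPM, overlapped only the Tim-4+CD4+ libraries. The means of the 3 subsets, in this order, were 101 ± 15.3, 48.9 ± 5.02, and 23.2 ± 5.89 CPM (SD, n = 4 each), against 24.0 ± 5.10 CPM (SD, n = 3) in monocytes. The log2 fold change was -1.05 (SE 0.17) from the Tim-4-CD4- subset to the Tim-4-CD4+ subset and -1.08 (SE 0.17) from the Tim-4-CD4+ subset to the Tim-4+CD4+ subset, or 4.36-fold lower over both steps. Tim-4+CD4+ macrophages and monocytes, the neighbours at the low end of the order, differed by a log2 fold change of -0.05 (SE 0.18). Over all alternatives tried, the change between the outer subsets stayed between -2.29 and -2.02.

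**Figure D1:**
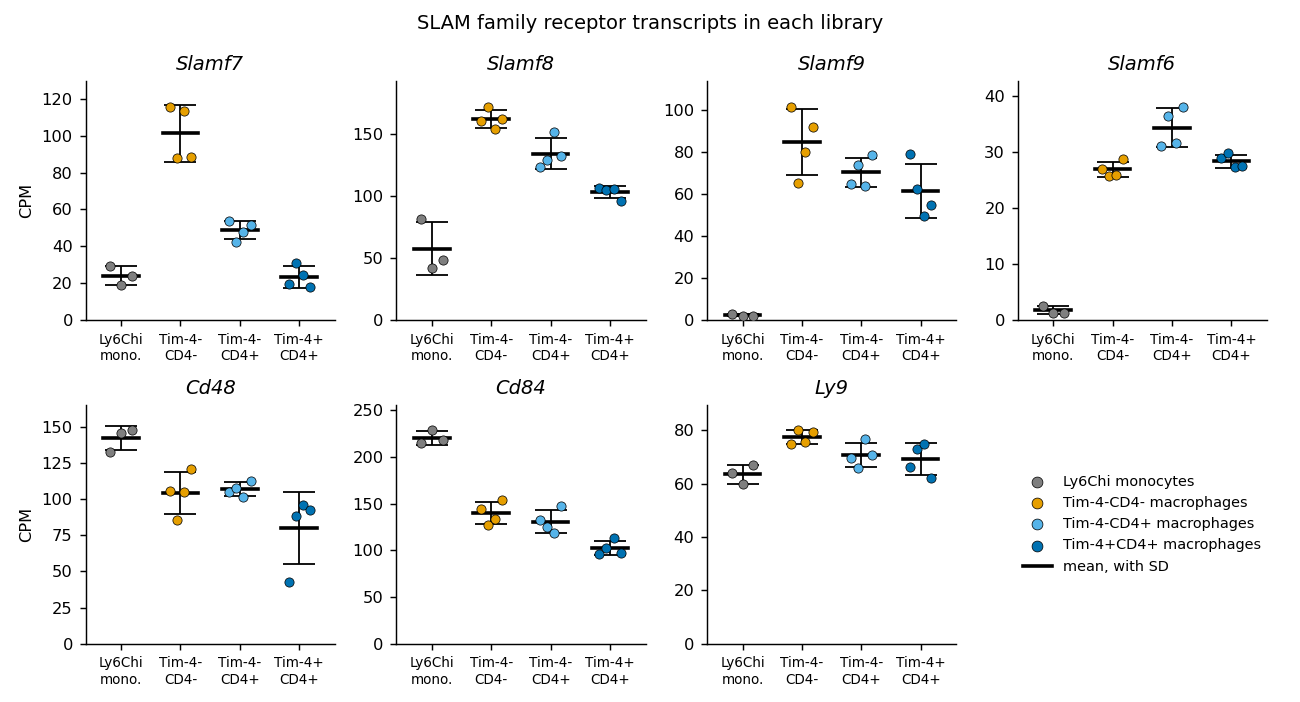
CPM of the 7 receptors (vertical axes, from 0) in each of the 15 libraries, by population, with points for libraries, thick lines for population means, and error bars for SD. Slamf7 forms 3 separate steps in the macrophage subsets, Slamf9 and Slamf6 are near 2 CPM in monocytes only, and 1 Tim-4+CD4+ library lies apart at 42.9 CPM of Cd48.

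Slamf8, which encodes a receptor known to restrain the production of reactive oxygen in phagocytes, was graded in the same order but less steeply. It was at 161, 172, 154, and 162 CPM in Tim-4-CD4- libraries, at 123, 129, 152, and 132 CPM in Tim-4-CD4+ libraries, and at 107, 105, 106, and 96.0 CPM in Tim-4+CD4+ libraries. Monocytes had 81.9, 41.8, and 48.8 CPM, so that no 2 populations overlapped, although the highest Tim-4-CD4+ library came close to the lowest Tim-4-CD4- library. Population means were 162 ± 7.49, 134 ± 12.5, and 103 ± 4.95 CPM (SD, n = 4 each) in the 3 subsets and 57.5 ± 21.4 CPM (SD, n = 3) in monocytes. The log2 fold change was -0.28 (SE 0.15) from the Tim-4-CD4- subset to the Tim-4-CD4+ subset and -0.65 (SE 0.15) from the Tim-4-CD4- subset to the Tim-4+CD4+ subset. Over monocytes the folds were 2.82, 2.33, and 1.80 in the 3 subsets. Monocyte replicate 1 held the highest value of its population, and without it the monocyte mean was 45.3 CPM and the log2 fold change of Tim-4+CD4+ macrophages over monocytes moved from 0.85 (SE 0.17) to 1.22.

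Slamf9 and Slamf6 separated macrophages from monocytes. Slamf9 was at 2.71, 1.79, and 2.08 CPM in monocytes, compared with 101, 65.1, 79.8, and 92.0 CPM in Tim-4-CD4- libraries, 64.9, 73.5, 63.8, and 78.3 CPM in Tim-4-CD4+ libraries, and 78.8, 62.4, 49.3, and 54.5 CPM in Tim-4+CD4+ libraries. Every macrophage library lay above every monocyte library, and the folds over monocytes were 38.3, 31.7, and 27.7, in that order. Among the subsets the libraries of Slamf9 overlapped in each pair. The Tim-4+CD4+ libraries overlapped the other subsets only through replicate 1, at 78.8 CPM. Without replicate 1 the Slamf9 mean of that subset was 55.4 ± 6.61 CPM (SD, n = 3). The log2 fold change of Slamf9 between the outer subsets was -0.46 (SE 0.16), and it ran from -0.61 to -0.36 when 1 library was left out. Slamf6 was at 2.53, 1.34, and 1.34 CPM in monocytes, and its folds over monocytes were 15.1, 19.3, and 16.0 in the 3 subsets, in the same order. Without monocyte replicate 1, the library highest in Slamf6, the log2 fold changes of Slamf6 over monocytes moved from between 3.92 and 4.27 to between 4.35 and 4.71.

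Slamf6, which encodes a receptor best known from lymphocytes, had its highest mean in Tim-4-CD4+ macrophages. The Tim-4-CD4+ libraries had 31.2, 36.5, 31.7, and 38.2 CPM, above the 25.8 to 28.9 CPM of Tim-4-CD4- libraries and the 27.3 to 29.8 CPM of Tim-4+CD4+ libraries. Those outer subsets overlapped each other and differed by a log2 fold change of 0.08 (SE 0.15). T cell markers, which also peaked in this subset, summed to 8.59 to 13.0 CPM over 7 genes, compared with 3.24 to 6.80 CPM in Tim-4-CD4- and 6.40 to 9.06 CPM in Tim-4+CD4+ macrophages. None of the 7 T cell markers was at 0 in all libraries of a subset, and their part in the Slamf6 values was not tested.

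Cd84 and Cd48 were higher in monocytes than in macrophages. Cd84, which encodes a receptor that binds itself, was at 215, 229, and 218 CPM in monocytes, 127 to 154 CPM in Tim-4-CD4-, 119 to 147 CPM in Tim-4-CD4+, and 96.1 to 113 CPM in Tim-4+CD4+ macrophages. The Tim-4+CD4+ libraries lay below those of both Tim-4- subsets, which overlapped each other. The log2 fold change of Cd84 against monocytes was -0.66 (SE 0.094) in Tim-4-CD4-, -0.75 (SE 0.094) in Tim-4-CD4+, and -1.11 (SE 0.094) in Tim-4+CD4+ macrophages. Cd48 was at 133, 146, and 148 CPM in monocytes, 106, 85.5, 105, and 121 CPM in Tim-4-CD4-, and 105, 108, 102, and 113 CPM in Tim-4-CD4+ macrophages, with the last 2 populations overlapping.

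In Tim-4+CD4+ macrophages, Cd48 was at 42.9, 88.6, 95.8, and 92.3 CPM. The first of these libraries, replicate 1, lay apart from the other 3, and with it the mean was 79.9 ± 24.8 CPM (SD, n = 4), compared with 92.3 ± 3.64 CPM (SD, n = 3) without it. The log2 fold change from the Tim-4-CD4- subset to the Tim-4+CD4+ subset was -0.39 (SE 0.18) with replicate 1 and -0.17 without it. From the Tim-4-CD4+ subset to the Tim-4+CD4+ subset it was -0.42 (SE 0.18) with and -0.21 without this library, and against monocytes it was -0.83 (SE 0.19) with and -0.61 without it. B cell markers were also highest in this library of its subset, at 72.4 CPM over 5 genes against 35.6 to 48.5 CPM in the other 3, and their part in the Cd48 value was not tested.

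Ly9, a receptor of lymphocytes and macrophages, varied least, with a mean of 63.5 ± 3.54 CPM (SD, n = 3) in monocytes and a highest mean, that of Tim-4-CD4- macrophages, of 77.6 ± 2.56 CPM (SD, n = 4), a ratio of 1.22. Its Tim-4-CD4- libraries (75.1 to 80.0 CPM) lay above those of monocytes (59.8 to 66.9 CPM) and of Tim-4+CD4+ macrophages (62.1 to 74.9 CPM) but overlapped those of Tim-4-CD4+ macrophages (65.7 to 76.9 CPM). Its log2 fold change against monocytes in Tim-4-CD4- macrophages was 0.29 (SE 0.085) and fell to 0.15 when total counts were used without scaling, a setting that moved the median of all genes in this comparison by -0.13.

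**Figure D2:**
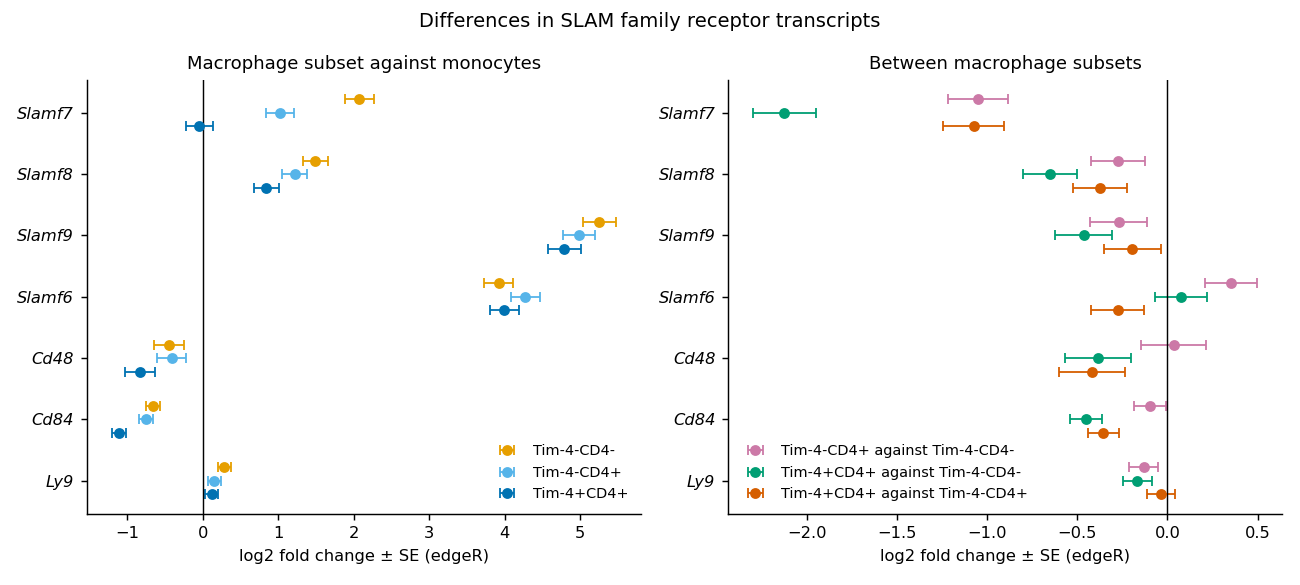
Log2 fold changes of the 7 receptors (horizontal axes, error bars are SE from edgeR) in each macrophage subset against monocytes, left, and between subsets, right. Slamf9 and Slamf6 lie near 4 to 5 against monocytes, and Slamf7 reaches -2.12 between the outer subsets while Ly9 stays near 0.

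The receptors were also counted by overlap, beside the same count for all genes. Libraries of the 2 populations did not overlap for 7 of 7 receptors between Tim-4-CD4- macrophages and monocytes, beside 67.6% of the 15802 genes tested. The count was 6 of 7 between Tim-4-CD4+ macrophages and monocytes, beside 70.1% of genes, and 5 of 7 between Tim-4+CD4+ macrophages and monocytes, beside 68.7% of genes. With Tim-4-CD4- macrophages as the reference, it was 3 of 7 beside 19.1% for the Tim-4-CD4+ subset and 4 of 7 beside 26.4% for the Tim-4+CD4+ subset. From the Tim-4-CD4+ subset to the Tim-4+CD4+ subset, 5 of 7 did not overlap, all of them lower, beside 9.63% of genes. Since the 7 genes were chosen with these values known, nothing is read from these counts. The median log2 fold change of the receptors was -0.13, -0.45, and -0.36 in these 3 comparisons of subsets, in the order given, and that of all genes was -0.00 in each.

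Levels of different genes were compared per kilobase of exon (FPKM, from exon lengths in GENCODE M21). Monocytes had a sum of 200 FPKM over the 7 receptors, of which Cd48 made up 59.9%, Cd84 17.6%, and Slamf9 0.835%. In Tim-4-CD4- macrophages the sum was 275 FPKM, and Cd48 made up 31.8%, Slamf9 23.3%, and Slamf8 19.3%. The mean share of Slamf9 was alike in the other subsets, at 22.0% (SD 1.48) in the Tim-4-CD4+ and 24.6% (SD 6.99) in the Tim-4+CD4+ subset. Their sums were 243 and 192 FPKM. In Tim-4+CD4+ replicate 1, Slamf9 was at 60.0 FPKM, against 37.5 to 47.5 FPKM in the other libraries of its subset. Cd48 was at 36.1 FPKM in this library, against 74.5 to 80.6 FPKM. Slamf7 made up 8.06%, 4.40%, and 2.62% of the sum in the 3 subsets, in the order named at the start. Slamf6, despite its large folds, was the smallest part of the sum in each population, with at most 1.37%. This rank depends on the exon length, which for Slamf6 was 10832 bases with all annotated exons merged, the longest of the 7. In CPM, without division by length, the mean of Slamf6 was above that of Slamf7 in Tim-4+CD4+ macrophages.

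**Figure D3:**
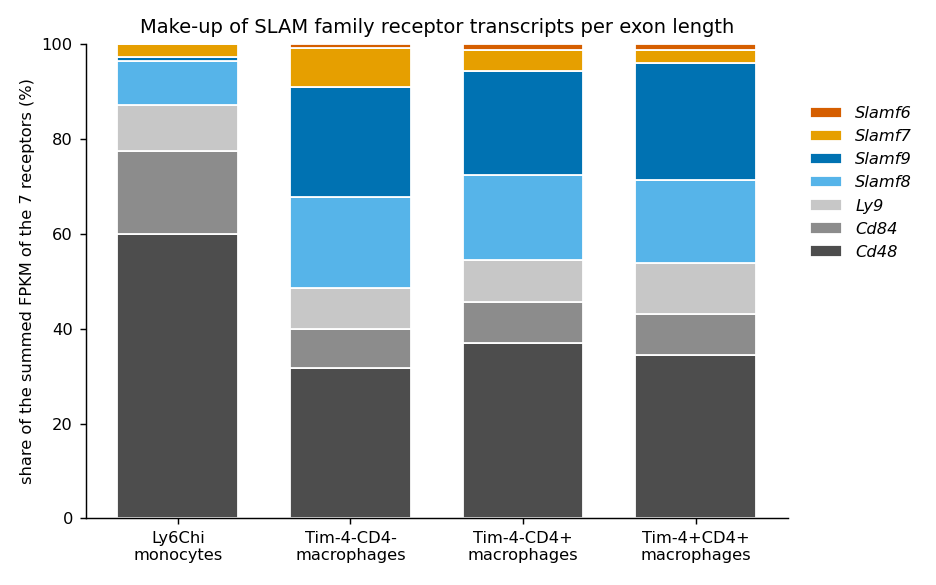
Mean share of each receptor in the summed FPKM of the 7 (vertical axis, percent) in the 4 populations, stacked. Cd48, Cd84, and Ly9 together fill most of the monocyte bar, whereas Slamf8 and Slamf9 are broad in all 3 macrophage bars.

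Markers of other cells that express SLAM receptors were read in the same libraries. Plasma cell markers, led by Jchain, summed to 248 to 391 CPM in Tim-4-CD4-, 229 to 376 CPM in Tim-4-CD4+, and 198 to 368 CPM in Tim-4+CD4+ macrophages over 4 genes, and to 0.130 to 0.302 CPM in monocytes. Lymphocyte markers were likewise lowest in monocytes, as Slamf6 and Slamf9 were, with sums of 0.224 to 0.482 CPM over the T cell list and 8.26 to 10.5 CPM over the B cell list, which stood at 35.6 to 72.4 CPM in macrophages. The sums of plasma cell markers overlapped among the subsets. Monocyte markers, led in each population by Ccr2, summed over 4 genes to 5188 to 7955 CPM in monocytes, 554 to 828 CPM in Tim-4-CD4-, 74.9 to 132 CPM in Tim-4-CD4+, and 13.4 to 24.8 CPM in Tim-4+CD4+ macrophages, the same order among the subsets as Slamf7 and Slamf8. The 5 markers of dendritic cells summed to 63.2 to 118 CPM in Tim-4-CD4- macrophages and to at most 47.7 CPM in the other subsets, and the 6 markers of NK cells and innate lymphocytes summed to 8.26 to 10.2 CPM in Tim-4-CD4- and 3.80 to 5.29 CPM in Tim-4+CD4+ macrophages. Plasmacytoid dendritic cell markers ran the other way, from 3.70 to 5.63 CPM over 3 genes in Tim-4-CD4- to 9.73 to 13.5 CPM in Tim-4+CD4+ macrophages. Of the 4 neutrophil markers, Csf3r made up nearly all of sums between 145 and 463 CPM, while S100a8 or S100a9 was at 0 in all libraries of each subset. The part of these markers in the receptor values was not tested.

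Genes with the pattern most like that of a receptor were named by Pearson's r of log2 CPM, as a description, for the 4 receptors with the widest range. The points fall into groups of libraries of 1 population and 11788 genes were compared, so high values of r are common. Over the 12 macrophage libraries, the 3 genes most like Slamf7 were 1700025G04Rik (r = 0.989), Ccr2 (r = 0.989), and Atp8b4 (r = 0.987). Ccr2 encodes the receptor that draws monocytes into tissue. Over all 15 libraries they were Trerf1 (r = 0.960), Traf1 (r = 0.952), and Ncl (r = 0.934). For Slamf8 they were Lyz1 (r = 0.984), Scarf1 (r = 0.980), and Stat4 (r = 0.974) over the 12 macrophage libraries, and Mmp25 (r = 0.976), Cd69 (r = 0.968), and Srgn (r = 0.968) over all 15. Over all 15 libraries, Slamf9 was followed most closely by Gpr65, Sult1a1, and Fmnl3, each with an r of at least 0.995, and Slamf6 by Gm8221, Gbp2b, and Pmepa1, each with an r of at least 0.997. Within macrophages r was lower for both, with D10Jhu81e (0.934), Fgr (0.924), and Dusp22 (0.920) for Slamf9 and Cacnb4 (0.875), Nxpe4 (0.869), and Treml4 (0.861) for Slamf6.

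Of the other genes of the family, Cd244a, which encodes the receptor for CD48, was lower in Tim-4-CD4- macrophages than in any other population. It was at 213, 188, and 167 CPM in monocytes, 60.0, 43.8, 61.1, and 54.4 CPM in Tim-4-CD4-, 82.3, 97.4, 66.6, and 98.4 CPM in Tim-4-CD4+, and 72.9, 93.4, 72.1, and 89.2 CPM in Tim-4+CD4+ macrophages. All macrophage libraries lay below all monocyte libraries, and the Tim-4-CD4- libraries lay below those of both CD4+ subsets, which overlapped. Cd244a rose from the Tim-4-CD4- subset to the Tim-4-CD4+ subset (log2 fold change 0.65, adjusted p = 0.0059, by edgeR's quasi-likelihood method with adjustment over all genes tested) and to Tim-4+CD4+ macrophages (log2 fold change 0.58, adjusted p = 0.0062, edgeR). Between the CD4+ subsets the log2 fold change was -0.07 (SE 0.14, adjusted p = 0.84, edgeR). Against monocytes it was lower by log2 fold changes of -1.79, -1.14, and -1.21 in the 3 subsets (adjusted p at most 3.9e-06, edgeR), and no alternative changed any of these calls.

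Slamf1, a receptor of T cells and activated phagocytes, was scarcely detected in monocytes, with 6, 0, and 6 reads in the 3 libraries, and was at 0.253 to 1.06 CPM in macrophages. Its log2 fold changes over monocytes were 3.28 (SE 0.76), 4.07 (SE 0.76), and 3.69 (SE 0.76) in the 3 subsets (adjusted p = 0.0012, 0.00017, and 0.00036, edgeR). The monocyte level rested on these few reads. The log2 fold changes were 2.66, 3.46, and 3.08 without monocyte replicate 2 and at least 4.20 without monocyte replicate 3, and the calls held in both. Between subsets it did not pass the test (adjusted p from 0.46 to 0.79, edgeR), at 10 to 142 reads per library. Cd2, which encodes the other partner of CD48 and is best known from T cells, was at 0.765, 2.80, and 0.836 CPM in monocytes and at 0.318 to 1.10 CPM in macrophages. It was lower than in monocytes in Tim-4+CD4+ macrophages (log2 fold change -1.30, adjusted p = 0.030, edgeR). This call was lost without monocyte replicate 2 (log2 fold change -0.39, adjusted p = 0.51, edgeR) and without Tim-4+CD4+ replicate 2 or 4, with upper-quartile scaling, and in a fit of only the 2 populations.

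The receptors' signalling partners formed a list of 26 genes, of which 24 were tested. Sh2d1a and Sh2d1b2, which encode the adaptors SAP and ERT, did not pass the filter on low counts, and Sh2d1a had at most 13 reads in a library. DESeq2, which applies a filter of its own, called Sh2d1a between Tim-4-CD4+ macrophages and monocytes, where it had 5 to 13 reads against 0 to 3. The remaining adaptor gene, Sh2d1b1 (EAT-2), was at 11.7, 15.8, and 12.5 CPM in monocytes and at 16.4 to 24.3 CPM in macrophages. It rose over monocytes in Tim-4-CD4- (log2 fold change 0.39, adjusted p = 0.014, edgeR), Tim-4-CD4+ (0.71, adjusted p = 0.00013, edgeR), and Tim-4+CD4+ macrophages (0.61, adjusted p = 0.00049, edgeR). The first of these calls was lost without monocyte replicate 1 (log2 fold change 0.32, adjusted p = 0.065, edgeR) and with total counts (0.25, adjusted p = 0.11, edgeR). Between subsets Sh2d1b1 did not pass the test.

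Against monocytes, partners were more often lower than higher. In Tim-4-CD4- macrophages 4 of 24 rose and 11 fell, beside 37.3% and 28.1% of all genes tested. The counts were 4 and 14 in Tim-4-CD4+ macrophages, beside 39.1% and 30.7%, and 5 and 14 in Tim-4+CD4+ macrophages, beside 39.5% and 31.3%. The median log2 fold changes of the partners were -0.23, -0.34, and -0.35, compared with 0.08, 0.11, and 0.10 for all genes. The largest rise was in Src, the founding kinase of its family, from 0.574, 0.379, and 0.242 CPM in monocytes to between 86.7 and 191 CPM in macrophages (log2 fold changes 7.95, 8.44, and 8.46). Prkcq, a protein kinase C of T cells, rose at low levels (0.852 to 3.13 CPM in macrophages, log2 fold changes 3.69, 3.70, and 2.92), and Plcg1, a phospholipase that acts downstream of tyrosine kinases, rose by log2 fold changes of 0.82, 1.06, and 0.98.

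The largest decreases against monocytes were in Fgr, Itgb2, and Plcg2. Fgr, a Src family kinase of myeloid cells, went from 687 ± 31.7 CPM (SD, n = 3) in monocytes to 116 ± 15.8, 100 ± 12.7, and 88.0 ± 14.0 CPM (SD, n = 4 each) in the 3 subsets, with log2 fold changes of -2.56, -2.77, and -2.96. Itgb2 encodes the beta chain of Mac-1 and fell by 1.87, 1.82, and 1.77 on the log2 scale. Plcg2, the phospholipase of B cells and myeloid cells, fell by 1.74, 1.94, and 1.90. All 18 changes named for these 6 genes were past the threshold (adjusted p at most 3.1e-05, edgeR), in libraries that did not overlap. The 4 genes of the class III phosphatidylinositol 3-kinase complex, which SLAMF1 is known to engage on phagosomes, were lower or did not pass, with 2 of 4, 3 of 4, and 3 of 4 lower in the 3 subsets, beside 28.1%, 30.7%, and 31.3% of all genes.

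Between macrophage subsets, 2 of 24 partners changed from the Tim-4-CD4- subset to the Tim-4-CD4+ subset, 1 higher and 1 lower, beside 4.52% and 5.53% of genes. From the Tim-4-CD4- subset to the Tim-4+CD4+ subset, 2 rose and 4 fell, beside 11.3% and 11.9%. From the Tim-4-CD4+ subset to the Tim-4+CD4+ subset, 1 rose and 1 fell, beside 2.07% and 1.34%. These shares are close to the background, and the median log2 fold changes of the partners were 0.00, -0.02, and -0.02.

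Fyn, the kinase that SAP recruits to SLAM receptors, was the partner that changed most among the subsets. It was at 22.9, 18.0, 27.3, and 20.7 CPM in Tim-4-CD4- libraries, at 35.5, 34.4, 32.0, and 38.5 CPM in Tim-4-CD4+ libraries, and at 49.2 to 64.6 CPM in Tim-4+CD4+ libraries (mean 56.6 ± 6.30, SD, n = 4). The 3 subsets did not overlap, in the reverse order of Slamf7, and monocytes, at 35.5 to 43.3 CPM, overlapped only the Tim-4-CD4+ libraries. The log2 fold changes were 0.66 (SE 0.12, adjusted p = 0.0017, edgeR) from the Tim-4-CD4- subset to the Tim-4-CD4+ subset and 0.69 (SE 0.12, adjusted p = 0.0022, edgeR) from the Tim-4-CD4+ subset to the Tim-4+CD4+ subset. From the Tim-4-CD4- subset to the Tim-4+CD4+ subset it was 1.35 (adjusted p = 5.2e-07, edgeR), and all 3 calls held under each alternative. T cells also express Fyn, and the part of the T cell markers given above in these values was not tested.

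Itgam, which encodes the alpha chain of Mac-1, had the order of Slamf7 among the 3 subsets but not in monocytes, where it was at 378, 352, and 328 CPM. It was at 320, 361, 340, and 364 CPM in Tim-4-CD4-, 296, 255, 249, and 268 CPM in Tim-4-CD4+, and 233, 227, 190, and 185 CPM in Tim-4+CD4+ macrophages, in libraries that did not overlap. From Tim-4-CD4- macrophages it fell by 0.37 on the log2 scale to Tim-4-CD4+ (adjusted p = 0.017, edgeR) and by 0.73 to Tim-4+CD4+ macrophages (adjusted p = 2.6e-05, edgeR). The step between the CD4+ subsets was -0.36 (adjusted p = 0.048, edgeR), and this call was lost in 22 of 25 alternatives. The call between the Tim-4- subsets was lost without Tim-4-CD4- replicate 2 or 4 and without Tim-4-CD4+ replicate 2, 3, or 4 (adjusted p at most 0.066, edgeR). Itgb2 did not pass between any pair of subsets.

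The other calls between subsets were all from the Tim-4-CD4- subset to the Tim-4+CD4+ subset. Ptpn11, which encodes the phosphatase SHP-2, went from 124, 125, 121, and 124 CPM to 72.1, 101, 104, and 106 CPM (log2 fold change -0.37, adjusted p = 0.016, edgeR). The lowest of these values, 72.1 CPM, was that of Tim-4+CD4+ replicate 1. The call held under each alternative, with log2 fold changes from -0.42 to -0.25 and adjusted p up to 0.047 (edgeR or DESeq2). Btk, a kinase of B cells and myeloid cells, fell by 0.22 on the log2 scale (adjusted p = 0.023, edgeR), Fgr fell by 0.40 (adjusted p = 0.030, edgeR), and Src rose by 0.51 (adjusted p = 0.048, edgeR). Libraries of Fgr and of Src overlapped between these subsets. These calls were lost in 9 of 25 alternatives for Btk and in 11 of 25 each for Fgr and Src, with adjusted p up to 0.088, 0.11, and 0.14 (edgeR or DESeq2). Leaving out Tim-4-CD4- replicate 1 or 4 ended all 3 calls. Those of Fgr and Src were also lost without Tim-4-CD4- replicate 3 or Tim-4+CD4+ replicate 3 or 4, those of Btk and Fgr without Tim-4+CD4+ replicate 2, and that of Src without monocyte replicate 2, Tim-4-CD4+ replicate 2 or 4, or Tim-4+CD4+ replicate 1.

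**Figure D4:**
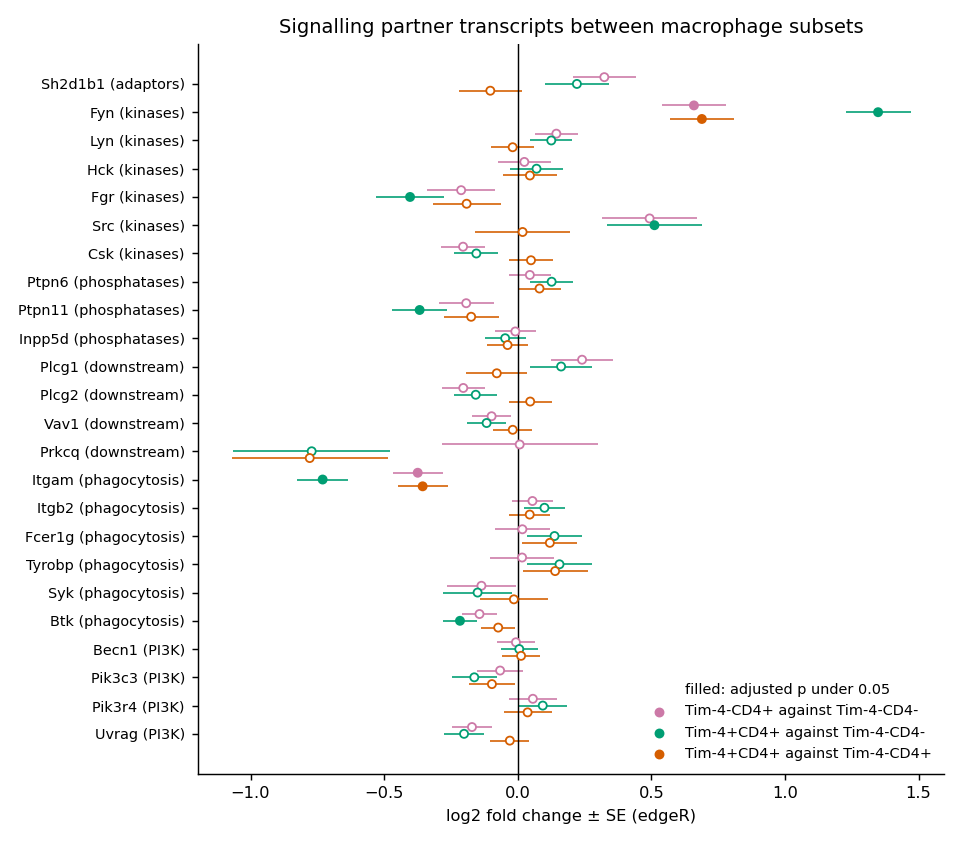
Log2 fold changes of the 24 partners tested (horizontal axis, error bars are SE from edgeR) for the 3 comparisons of macrophage subsets, by role. Filled points passed an adjusted p of 0.05, and Fyn (to 1.35) and Itgam (to -0.73) lie farthest from 0 among them.

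Neighbouring genes, those within 200 kb of the clusters or between their receptors, numbered 37 in the counts, and 30 were tested, with Cd244a and Slamf1 among them. Against monocytes, 12 rose and 11 fell in the Tim-4-CD4- subset, 12 and 10 in the Tim-4-CD4+ subset, and 12 and 12 in the Tim-4+CD4+ subset, beside 37.3% and 28.1%, 39.1% and 30.7%, and 39.5% and 31.3% of all genes tested. From the Tim-4-CD4- subset to the Tim-4-CD4+ subset 2 of 30 rose and 1 fell, beside 4.52% and 5.53% of genes. To Tim-4+CD4+ macrophages 5 rose and 2 fell, beside 11.3% and 11.9% of genes. Between the CD4+ subsets 0 of 30 passed edgeR's test, while 3 had an unadjusted p under 0.05 and DESeq2 called 1. Tagln2 and Kcnj9 were among those called from the Tim-4-CD4- subset to the Tim-4+CD4+ subset.

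Tagln2, which encodes an actin-binding protein and lies in the second cluster between Slamf9 and Slamf8, went from 397, 563, 449, and 459 CPM to 274, 241, 289, and 241 CPM (log2 fold change -0.84, adjusted p = 0.00034, edgeR). Kcnj9, which encodes a potassium channel, went from 8.51 ± 0.710 to 13.7 ± 1.05 CPM (SD, n = 4 each; log2 fold change 0.68, adjusted p = 0.0021, edgeR). The calls of Tagln2 and Kcnj9 held under each alternative. No neighbour called between subsets had a log2 fold change as far from 0 as the -2.12 of Slamf7, whose own neighbours in the first cluster, Cd48 and Ly9, were at -0.39 and -0.17.

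**Figure D5:**
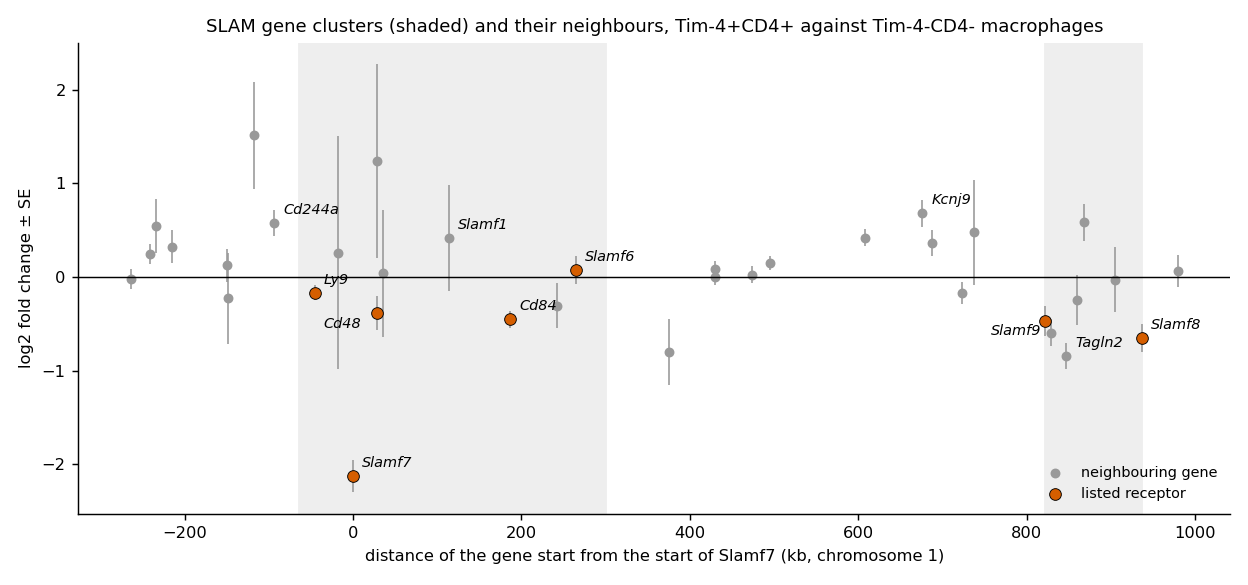
Log2 fold changes of the listed receptors and of tested neighbouring genes from the Tim-4-CD4- subset to the Tim-4+CD4+ subset. The vertical axis gives the log2 fold change, with error bars for SE from edgeR. The horizontal axis gives the distance of the gene start from that of Slamf7 on chromosome 1 (kb). A tested neighbour that is not reported here is left out. Slamf7 lies alone at -2.12, and the neighbours shown above 1 did not pass the test.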

How the data were processed

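RNA of sorted cells was made into strand-specific libraries from polyadenylated RNA. Per the methods and the submitters' processing notes, reads were trimmed by the authors (Trimmomatic 0.36) and mapped with STAR to GRCm38.p4, and the deposited values are raw counts of uniquely mapped reads for each gene of GENCODE vM11 (HTSeq 0.6.1p1). A second set of 15 columns, the counts divided by a size factor, was not used. Library depth ran from 39388763 to 151510641 counts. Each gene in the table has at least 16 reads.

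The libraries were grouped by their titles. Genes were filtered with filterByExpr by population (15802 kept) and scaled by TMM in edgeR 4.0.16 (R 4.3.3). One quasi-likelihood fit over 15 libraries gave 6 comparisons, with Benjamini-Hochberg adjustment over all genes tested and a threshold of 0.05. Log2 CPM used a prior count of 2. Nothing in the labels says which mice gave more than 1 library. The authors describe independent sorts of pooled mice for the macrophages, so libraries of different subsets may come from the same pool. The main fit took all libraries as unpaired, and its p-values measure the spread between these libraries. The script was tested on simulated data. The receptors and lists were chosen with earlier results of these data known.

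Named were the 7 receptors, Slamf1, Cd244a, Cd2, the adaptors, partners past the threshold between subsets or among the 3 largest changes each way against monocytes, the 3 most extreme neighbours called between subsets (1 is not reported here), and the 3 genes most like each of 4 receptors among genes with a mean of at least 1 CPM. Alternatives were DESeq2 1.42.0, relative log expression and upper-quartile scaling, 2 other filters, only the 2 populations compared, replicate blocks, thinned counts, leaving out each library, and, chosen after seeing the data, total counts without scaling. Sequences came from RefSeq, gene positions from GENCODE M21. The plots used matplotlib 3.10.9 under Python 3.11.15.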

Additional observations from a re-analysis of the deposited data

Results flagged for a closer look

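In Tim-4+CD4+ replicate 1, Cd48 was at 42.9 CPM, apart from the next library of its subset at 88.6 CPM. Ptpn11 was at 72.1 CPM in the same library, with the next at 101 CPM. Slamf1 was also low there, at 0.428 CPM against 0.637 CPM, from 44 reads. In each case the gap took up more of the range of the 4 libraries than Dixon's test allows, and chance alone passes this limit in about 1 in 20 of the 69 groups examined. All 3 flags fell on this library, which was also the least like the others of its population across genes, and no explanation was tested.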

How the results depend on the processing

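No result changed direction past its threshold under any alternative. Counts of partners and neighbours called between subsets moved most. Partners called from the Tim-4-CD4- subset to the Tim-4-CD4+ subset, 2 in the report, numbered 1 to 3 when 1 library was left out. Partners called from the Tim-4-CD4- subset to the Tim-4+CD4+ subset, 6 in the report, numbered 3 with the replicate block by title numbers and 3 to 7 when 1 library was left out. Partners called between the CD4+ subsets, 2 in the report, numbered 1 with upper-quartile scaling, total counts, the filters of 1 count or of a mean of 1 CPM, a fit of only the 2 populations, either replicate block, and thinned counts, and 1 to 2 when 1 library was left out. Neighbours called from the Tim-4-CD4- subset to the Tim-4-CD4+ subset, 3 in the report, numbered 5 in a fit of only the 2 populations, 5 with the replicate block by description numbers, and 2 to 5 when 1 library was left out. Neighbours called between the CD4+ subsets, 0 in the report, numbered 1 with DESeq2, upper-quartile scaling, total counts, the filter of a mean of 1 CPM, a fit of only the 2 populations, either replicate block, and thinned counts, and 0 to 1 when 1 library was left out. Neighbours called from the Tim-4-CD4- subset to the Tim-4+CD4+ subset, 7 in the report, numbered 5 to 10 over all alternatives. Receptors without overlap numbered 2 to 4, 3 to 6, and 4 to 6 in the 3 comparisons of subsets, against 3, 4, and 5. The cause of these moves was not tested. Between the CD4+ subsets DESeq2 called 904 of all genes against 539 by edgeR, and without Tim-4-CD4+ replicate 4 the calls between the Tim-4- subsets fell from 1589 to 1033.

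Whether the replicate numbers pair the libraries was not settled, because only same-numbered libraries were compared, with no differently numbered ones beside them. Deviations of same-numbered libraries correlated between -0.12 and 0.13 by title numbers, with 2 of 12 pairs over 0.1. By description numbers they correlated between -0.089 and 0.16, with 4 of 12 over 0.1. Pairs of description number 4 were at 0.16, 0.13, and 0.14, and those of number 2 were at -0.089, -0.053, and -0.024. Upper-quartile scaling moved the median of all genes by 0.11 from monocytes to Tim-4+CD4+ macrophages, and total counts moved it by -0.13, -0.12, and -0.10 against monocytes in the 3 subsets. Depth limits Slamf1, Cd2, and the adaptors Sh2d1a and Sh2d1b2, which had few reads.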
